A study of Mus musculus with 4 samples.

Results

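The genes described here are 39 genes of autophagy and of the lysosome, fixed as a list of symbols. They comprise 23 genes of the autophagosome, 13 genes of the lysosome and the 3 genes for the transcription factors Tfeb, Tfe3 and Mitf, which encode neither and are described apart. All 39 had a row among the 23238 distinct symbols of the count tables, and all 39 passed the filter on low counts. The samples were primary pancreatic acinar cells of C57BL/6J mice, exocrine cells that make and secrete digestive enzymes. In the ERRγ group the cells carried an adenovirus encoding estrogen-related receptor γ (ERRγ, gene Esrrg), an orphan nuclear receptor known for its role in oxidative metabolism, and in the GFP group an adenovirus encoding green fluorescent protein (GFP). Both groups received virus at a multiplicity of infection of 100 and were collected after 36 h, in culture medium with serum, antibiotics and a trypsin inhibitor, to which human epidermal growth factor was added at 25 ng/ml. The labels name neither the promoter behind either insert nor an animal or culture for each library. The p-values therefore reflect the spread of these libraries alone, and that spread may be technical.

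Autophagy encloses cytoplasm or organelles in a double membrane, the autophagosome, which then fuses with the lysosome. The ULK kinase complex starts it, a lipid kinase built around beclin 1 marks the site, and 2 conjugation systems attach small proteins of the ATG8 family (the LC3 and GABARAP proteins) to the growing membrane, where they hold cargo receptors such as p62. The lysosome breaks the contents down with acid hydrolases, among them the cathepsins, and TFEB, TFE3 and MITF can switch on genes of both stages. In pancreatic acinar cells autophagy is known for its disturbance in pancreatitis, where cathepsin B can activate trypsinogen and cathepsin L can degrade it.

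Transcript ends were sequenced in 2 libraries a group, with 10480878 and 10645277 counts in the ERRγ libraries and 10105604 and 11012351 counts in the GFP libraries. Levels are given as CPM, counts relative to library size after TMM scaling, in the usual unit, and a floor of 3 counts was at most 0.297 CPM on library totals. The Esrrg count was 1453 and 12994 in ERRγ libraries 1 and 2, against 86 and 107 counts in GFP libraries 1 and 2, so the libraries go with their labels, and ERRγ library 2 held 9.9 times the Esrrg CPM of ERRγ library 1. Markers of acinar cells were scarce: Ptf1a had no count in any library, and 12 acinar markers summed to 85.8 and 74.7 CPM in the ERRγ libraries and to 104 and 48.3 CPM in the GFP libraries. Ctrb1 was the largest part of each sum. Of the 9 acinar markers tested, none passed the test with edgeR. Rbpjl had 25 and 43 counts with ERRγ and 6 and 11 counts with GFP (log2 fold change 1.99, edgeR adjusted p = 0.09975). The groups of Rbpjl were apart, as for 54% of all genes tested. Ctrb1 had a log2 fold change of 0.34, and the other tested acinar markers were below zero. Of 10 macrophage markers, cells rich in lysosomes, 4 were high enough to test and Cd14 fell (adjusted p = 0.0488). The macrophage markers summed to 51.7 and 68.7 CPM in the ERRγ libraries and to 96.0 and 94.4 CPM in the GFP libraries, mostly Cd14. Ptprc, which marks all leukocytes, had no count in either ERRγ library and 1 and 0 counts in the GFP libraries. Adgre1, the macrophage marker F4/80, had no count in either ERRγ library and 8 and 20 counts in the GFP libraries. Csf1r went the other way, with 42 and 72 counts in the ERRγ libraries and 24 and 37 counts in the GFP libraries. Its groups were apart, but it did not pass the test with edgeR (log2 fold change 0.90, adjusted p = 0.292). The other tested macrophage markers, Mrc1 and Tyrobp, had log2 fold changes of −0.96 and −0.85 and did not pass either. The 7 fibroblast markers summed to 633 and 550.4 CPM with ERRγ and to 746 and 509 CPM with GFP, and none passed the test with edgeR, while 1 of them, Col3a1, was past an unadjusted p of 0.05. Of 6 ductal markers Cftr rose and Krt7 fell, and the 6 together summed to 2272 and 2774 CPM with ERRγ and 3054 and 2943 CPM with GFP. The 5 endothelial markers summed to 6.42 and 5.33 CPM with ERRγ and to 10.2 and 2.96 CPM with GFP. The part of these cells in the values below was not tested.

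Of the 23 autophagosome genes, 1 rose with ERRγ and none fell. That gene was Gabarapl1, which encodes an ATG8 protein of the GABARAP group. Gabarapl1 stood at 132 and 188 CPM in ERRγ libraries 1 and 2, against 83.5 and 81.6 CPM in GFP libraries 1 and 2. Both ERRγ libraries lay above both GFP libraries, as for 27.4% of all genes tested. ERRγ library 2 was the higher of the pair, as for 49.4% of all genes tested. The mean was 160.3 ± 39.3 CPM with ERRγ and 82.5 ± 1.34 CPM with GFP (SD, n = 2 each), a 1.94-fold rise (log2 fold change 0.96, SE 0.18, 95% interval 0.54 to 1.38, edgeR adjusted p = 0.0212). Against the GFP mean, ERRγ library 1 was 1.605 times and ERRγ library 2 was 2.28 times as high. The share of autophagosome genes that rose, 4.35%, was close to the 5.06% of all 13070 genes tested that rose, and 1.78% of all genes fell. At an unadjusted p under 0.05, Gabarapl1 and Optn were above and Ulk2 and Atg7 were below among the autophagosome genes, beside 13.6% of all genes above and 9.53% below. DESeq2 and limma-voom each called 1 autophagosome gene, Gabarapl1. The call for Gabarapl1 ended without GFP library 1 (adjusted p = 0.209) and without GFP library 2 (adjusted p = 0.179), where the spread comes from the ERRγ pair alone, while its log2 fold change stayed at 0.97 and 0.94. In bulk samples, a change in the number of cells of a type and a change of RNA per cell cannot be told apart.

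Gabarapl1 lies on chromosome 6 (129533160 to 129542346, plus strand, GRCm38) and overlaps no other coding gene, but the noncoding 1700101I11Rik on the minus strand and Gm44243 on the plus strand. Its promoter window in the RefSeq table, chr6:129532942-129533241 on the plus strand of GRCm38.p6 (250 bases before to 50 after the start), is shown because it is the one member whose transcript rose.
Gabarapl1: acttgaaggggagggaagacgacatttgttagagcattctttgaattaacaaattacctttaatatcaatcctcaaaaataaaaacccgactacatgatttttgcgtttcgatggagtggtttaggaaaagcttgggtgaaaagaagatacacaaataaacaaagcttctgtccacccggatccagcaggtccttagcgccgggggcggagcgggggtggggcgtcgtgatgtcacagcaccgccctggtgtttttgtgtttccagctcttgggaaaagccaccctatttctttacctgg
The window held none of the 3 letter strings searched on both strands in members' promoters. These were CACGTG, the core of the element that TFEB and its relatives bind, GTCACGTG, a longer form that contains it, and AAGGTCA, the half-site that estrogen-related receptors bind. The absence says that these letters are not in this window.

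**Figure D1:**
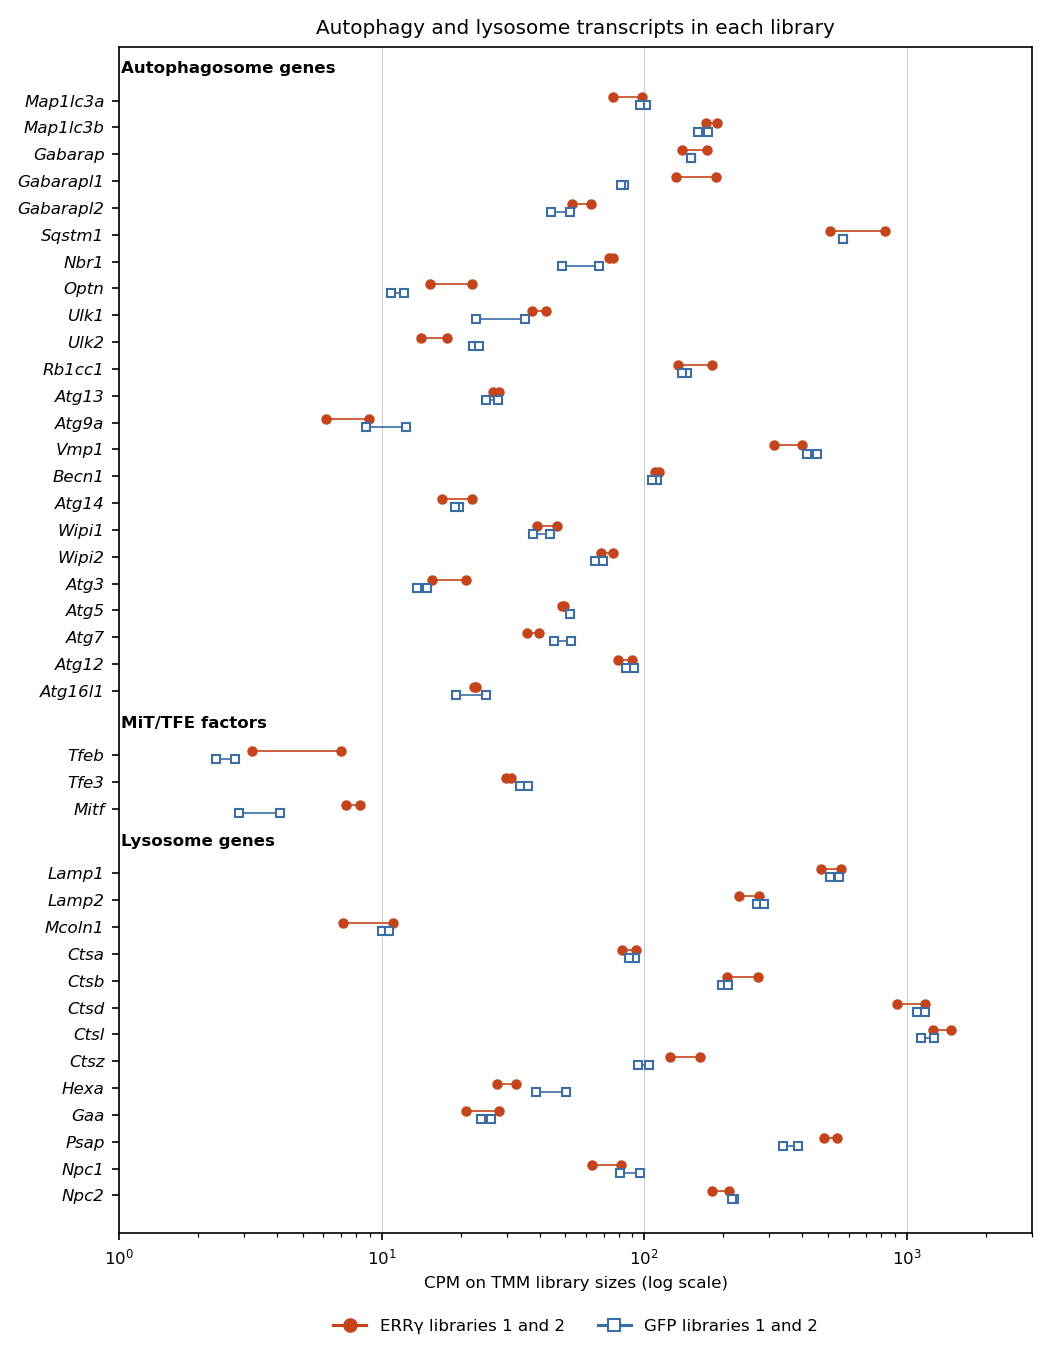
Level of each of the 39 genes in each library, in CPM on TMM library sizes (log axis), with ERRγ libraries as filled circles and GFP libraries as open squares; a line joins the 2 libraries of a group. Gabarapl1 at 132 and 188 CPM with ERRγ lies clear of 83.5 and 81.6 CPM with GFP. The groups of 22 of the 39 genes overlap, beside 6010 of all 13070 genes tested.

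The other ATG8 genes did not pass the test. Map1lc3a, one of the LC3 genes, stood at 76.2 and 98.3 CPM with ERRγ and 102 and 96.6 CPM with GFP (log2 fold change −0.18, 95% interval −0.55 to 0.18, adjusted p = 0.541). Map1lc3b, whose protein is the usual marker of autophagosomes, stood at 172 and 190.0 CPM with ERRγ and 160.2 and 174 CPM with GFP (0.11, −0.20 to 0.43, adjusted p = 0.669). In both LC3 genes the groups overlapped. Gabarap stood at 139 and 174 CPM with ERRγ and 151 and 151 CPM with GFP (0.05, −0.30 to 0.40, adjusted p = 0.890). Gabarapl2 stood at 53.3 and 62.6 CPM with ERRγ and 44.0 and 52.1 CPM with GFP (0.27, −0.09 to 0.63, adjusted p = 0.351). The ERRγ libraries lay above the GFP libraries for Gabarapl2, by less than the test resolves. Whether the change of Gabarapl1 differs from that of its relatives was not tested.

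The 3 cargo receptor genes had positive log2 fold changes, between 0.22 and 0.69, and none passed the test. Optn, which encodes optineurin, a receptor for ubiquitin-tagged bacteria and mitochondria, had 15.3 and 22.03 CPM with ERRγ against 12.2 and 10.9 CPM with GFP (log2 change 0.69, SE 0.26, adjusted p = 0.157). Nbr1, a receptor related to p62, had 73.2 and 75.9 CPM with ERRγ against 48.6 and 67.2 CPM with GFP (0.36, SE 0.18, adjusted p = 0.266). For both genes the groups did not overlap, which was so in either direction for 54% of all genes tested. Sqstm1, which encodes p62 itself, had 508 and 828 CPM with ERRγ against 573 and 571 CPM with GFP (0.22, SE 0.22, adjusted p = 0.593). The ERRγ libraries of Sqstm1 lay on either side of the GFP libraries. Leaving out ERRγ library 1 gave a log2 fold change of 0.53, and leaving out ERRγ library 2 gave −0.17.

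Of the initiation kinase genes, the pair Ulk1 and Ulk2 pointed in opposite directions without passing the test. Ulk1, the main autophagy-starting kinase, stood at 37.3 and 42.3 CPM with ERRγ and 22.8 and 35.004 CPM with GFP (log2 fold change 0.46, 95% interval −0.04 to 0.96, adjusted p = 0.254). Ulk2, its close relative, stood at 17.7 and 14.1 CPM with ERRγ and 22.3 and 23.5 CPM with GFP (−0.53, −1.003 to −0.05, adjusted p = 0.178). The groups were apart for both, with ERRγ above for Ulk1 and below for Ulk2, beside 27.4% of all genes tested above and 26.6% below. Their scaffold partners were level: Atg13 had 27.9 and 26.6 CPM with ERRγ and 27.8 and 24.9 CPM with GFP. Rb1cc1, which encodes FIP200, had 181 and 135 CPM with ERRγ and 146 and 139 CPM with GFP, with the ERRγ libraries on either side (0.15, −0.24 to 0.53). The end of a Rb1cc1 transcript also matched the predicted gene Gm13961 at 97.5% identity, so its count is uncertain.

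Genes for membrane supply and the lipid kinase lay between −0.48 and 0.10 in log2 fold change. Becn1, the beclin 1 gene, had 113 and 110.3 CPM with ERRγ against 111 and 107 CPM with GFP (log2 fold change 0.03, 95% interval −0.26 to 0.33, adjusted p = 0.913). Becn1 overlaps the end of Cntd1 on the opposite strand, and Cntd1 had a count of 1094 and 954 with ERRγ, against 886 and 1018 with GFP. The use of strand in counting is not stated, so reads of Becn1 and Cntd1 cannot be told apart. Vmp1, an endoplasmic reticulum protein that acinar cells switch on in pancreatitis and that starts autophagosome formation, had 399.8 and 312 CPM with ERRγ against 417 and 454 CPM with GFP (−0.29, −0.66 to 0.08, adjusted p = 0.324). Both ERRγ libraries were below both GFP libraries for Vmp1, as for 26.6% of all genes tested. Atg9a, a lipid scramblase that seeds the membrane, had 8.92 and 6.12 CPM with ERRγ against 12.4 and 8.71 CPM with GFP (−0.48, −1.24 to 0.27). The groups overlapped for Atg9a, and it overlaps Ankzf1 on the opposite strand. The end of an Atg9a transcript also matched Gm29253, on the same strand, at 100% identity over 200 bases, so the Atg9a count is uncertain. Atg14, which directs the lipid kinase to autophagy, and the phosphoinositide readers Wipi1 and Wipi2 had log2 fold changes of 0.01, 0.07 and 0.10, with overlapping groups.

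In the conjugation machinery, Atg7 and Atg3 differed in sign. Atg7, the activating enzyme for both conjugation systems, had 35.7 and 39.7 CPM with ERRγ against 52.5 and 45.2 CPM with GFP (log2 change −0.37, SE 0.15, adjusted p = 0.188). Atg3, the enzyme that then passes ATG8 proteins to lipid, had 20.97 and 15.6 CPM with ERRγ against 14.8 and 13.6 CPM with GFP (0.36, SE 0.23, adjusted p = 0.402). Groups were apart for Atg7 and Atg3, as for 54% of all genes tested, and neither passed the test. Atg5 had 48.6 and 49.5 CPM with ERRγ against 52.3 and 52.1 CPM with GFP (−0.09, SE 0.13, adjusted p = 0.739). The groups of Atg5 were apart as well, with ERRγ below. The Atg5 partners Atg12 (−0.07, SE 0.14) and Atg16l1 (0.03, SE 0.20), which together form the complex that places ATG8 proteins on the membrane, had overlapping groups.

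Over the 23 autophagosome genes, the median log2 fold change was 0.05, beside −0.01 over all genes tested. The ERRγ libraries lay wholly above the GFP libraries for 6 of the 23 and wholly below for 4, beside 27.4% and 26.6% of all genes tested. The 95% intervals of 19 of the 22 genes other than Gabarapl1 lay within 1 log2 unit of zero on both sides. The exceptions were Optn, Atg9a and Ulk2. The plot of fold changes shows this spread around zero.

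**Figure D2:**
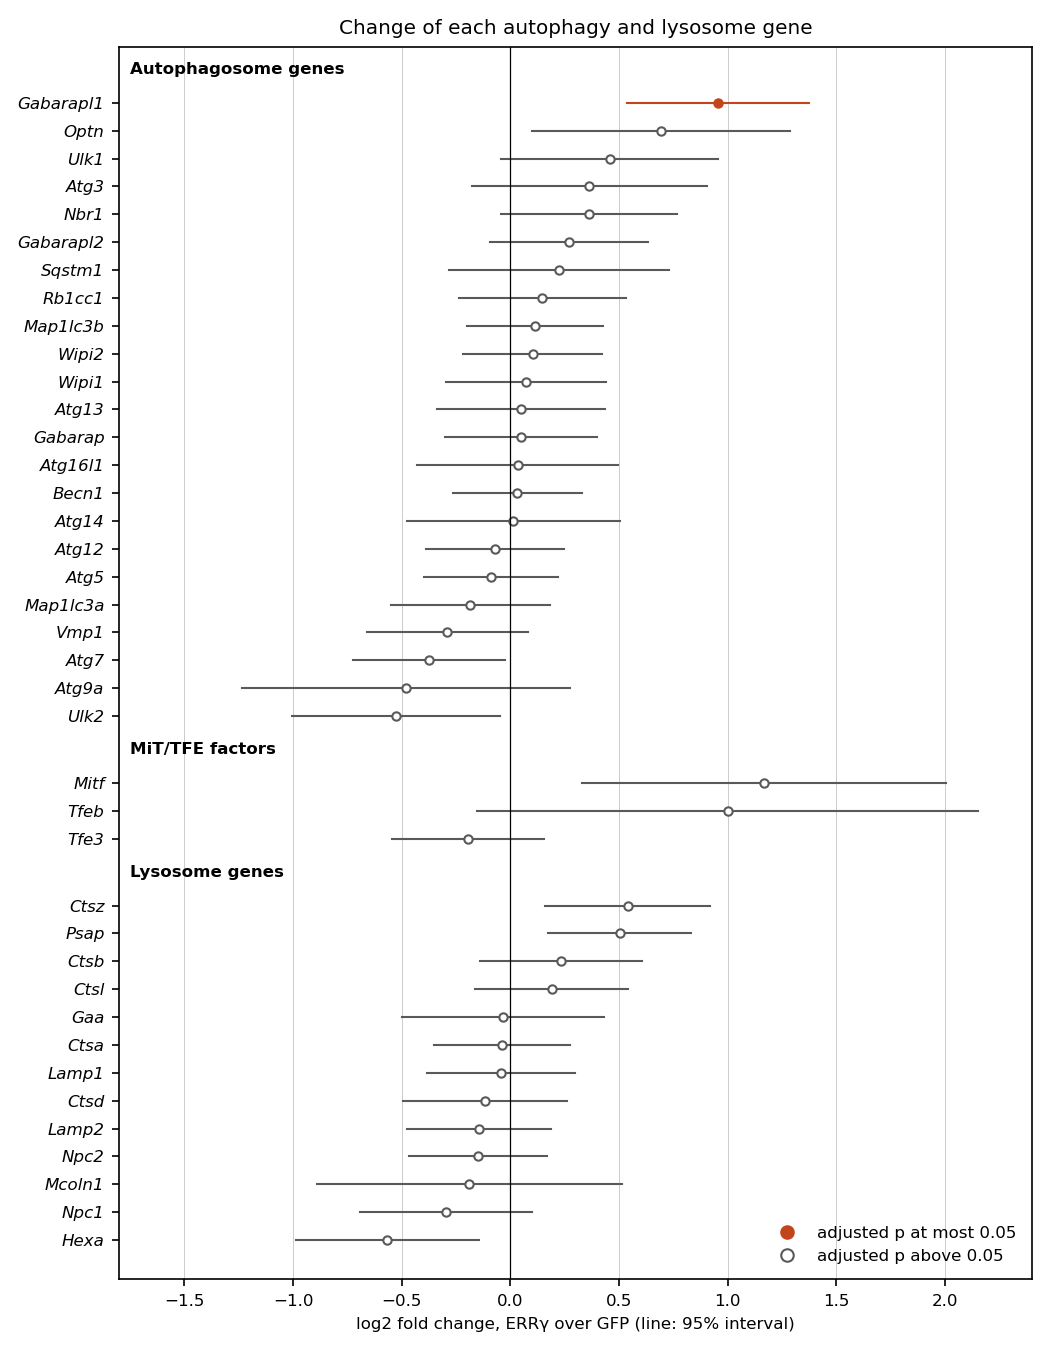
Log2 fold change of each gene, ERRγ over GFP, from edgeR, with its 95% interval as a line, sorted within each group. Gabarapl1 at 0.96 is the filled point that passed the test (adjusted p = 0.0212), and the lysosome genes run from −0.57 for Hexa to 0.54 for Ctsz.

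None of the 13 lysosome genes rose or fell with ERRγ in edgeR's test, beside 6.84% of all genes tested that did. At an unadjusted p under 0.05, 2 were above, Psap and Ctsz, and 1 was below, Hexa, beside 13.6% of all genes above and 9.53% below. With DESeq2 1 of the 13 passed, Psap (adjusted p = 0.0223), and with limma-voom none did. Among all genes, 751 rose and 342 fell of 13379 with DESeq2, and 630 rose and 241 fell of 13070 with limma-voom. The lysosome genes together took 4082 and 4920 CPM in ERRγ libraries 1 and 2, against 4116 and 4460 CPM in GFP libraries 1 and 2, so the GFP values lay between the ERRγ values. All 13 of the 95% intervals lay within 1 log2 unit of zero, the lowest bound being −0.99 for Hexa and the highest 0.92 for Ctsz. The median log2 fold change was −0.04, beside −0.01 over all genes tested, and it was 0.075 without ERRγ library 1 and −0.26 without ERRγ library 2. The groups were apart for 4 of the 13, Psap and Ctsz with ERRγ above and Hexa and Npc2 with ERRγ below, beside 54% of all genes tested (27.4% above and 26.6% below).

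The cathepsins are the lysosome's proteases, and their log2 fold changes lay between −0.12 and 0.54. Ctsd, an aspartic protease, stood at 917 and 1177 CPM with ERRγ and 1096 and 1176 CPM with GFP (log2 fold change −0.12, 95% interval −0.49 to 0.26, adjusted p = 0.718). Ctsl, a cysteine protease, stood at 1263 and 1479 CPM with ERRγ and 1130.0 and 1272 CPM with GFP (0.19, −0.16 to 0.54, adjusted p = 0.505). Both pairs of groups overlapped. Ctsb stood at 207 and 271 CPM with ERRγ and 198 and 208 CPM with GFP (0.23, −0.14 to 0.61, adjusted p = 0.430). Its ERRγ library 1 was level with the GFP libraries and ERRγ library 2 was higher, and the gene overlaps Fdft1 on the opposite strand, at 325 and 361 counts with ERRγ, against 255 and 319 counts with GFP. Ctsz, a carboxypeptidase on chromosome 2 (174427493 to 174439039, minus strand), overlaps Nelfcd on the opposite strand and stood at 125 and 164 CPM with ERRγ and 94.3 and 104 CPM with GFP (0.54, 0.16 to 0.92, adjusted p = 0.0958). The groups were apart, and the adjusted p missed the threshold. Ctsa, a carboxypeptidase that also protects other hydrolases, had 82.6 and 93.1 CPM with ERRγ and 92.6 and 87.9 CPM with GFP (−0.04, −0.35 to 0.28).

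Among the genes for breakdown of glycans and lipids, Psap and Hexa pointed in opposite directions without passing edgeR's test. Psap, which encodes prosaposin, the precursor of the activators of sphingolipid breakdown (chromosome 10, 60277627 to 60302597, plus strand), had 486 and 541 CPM with ERRγ against 339 and 385 CPM with GFP. Both ERRγ libraries were above both GFP libraries (1.42-fold, log2 fold change 0.50, SE 0.14, adjusted p = 0.0815). Hexa, the α subunit of β-hexosaminidase, had 27.6 and 32.5 CPM with ERRγ against 50.3 and 38.6 CPM with GFP (−0.57, SE 0.18, adjusted p = 0.110). The GFP libraries of Hexa differed by more than the ERRγ libraries did, and the groups were apart. Gaa, the acid α-glucosidase that digests glycogen, had 20.9 and 28.1 CPM with ERRγ against 26.1 and 24.0 CPM with GFP (−0.03, SE 0.20, adjusted p = 0.945).

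The membrane and cholesterol export genes had log2 fold changes between −0.29 and −0.04. Lamp1, the abundant membrane glycoprotein used as a lysosome marker, had 472 and 559 CPM with ERRγ against 508 and 554 CPM with GFP (log2 fold change −0.04, 95% interval −0.38 to 0.30, adjusted p = 0.898). The end of a Lamp1 transcript also matched Grtp1, on the opposite strand, at 100% identity over 177 bases. Grtp1 had 127 and 85 counts with ERRγ, against 71 and 118 counts with GFP. Lamp2, needed for autophagosomes to be cleared, had 230.1 and 273 CPM with ERRγ against 269 and 286 CPM with GFP (−0.14, −0.48 to 0.19, adjusted p = 0.603). Mcoln1, the calcium channel of the lysosome, had 7.14 and 11.1 CPM with ERRγ against 10.03 and 10.7 CPM with GFP (−0.19, −0.89 to 0.51, adjusted p = 0.763). The groups overlapped for these genes, and the low count of Mcoln1 gave it a wide interval. Npc1, which moves cholesterol through the lysosomal membrane, had 63.3 and 81.7 CPM with ERRγ against 80.9 and 96.8 CPM with GFP (−0.29, −0.69 to 0.10, adjusted p = 0.349). Npc2, the soluble protein that hands cholesterol to it, had 182 and 211 CPM with ERRγ against 220.3 and 215 CPM with GFP (−0.15, −0.47 to 0.17, adjusted p = 0.572).

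Promoters of lysosome genes are known for CACGTG elements. In the RefSeq table (GRCm38.p6), 32 of the 39 genes had a promoter window. CACGTG, which reads the same on both strands, was in at least 1 window of 6 of 11 lysosome genes (54.5%) and 4 of 18 autophagosome genes (22.2%), beside 8.1% of the 27025 genes in the table. The longer GTCACGTG, every match of which is also a CACGTG match, was in 4 of 11 lysosome genes (36.4%) and 3 of 18 autophagosome genes (16.7%), beside 2.5% of all genes. AAGGTCA was in 2 of 11 lysosome genes (18.2%), Ctsa and Psap, in none of the 18 autophagosome genes and in Mitf, beside 5.4% of all genes. A gene with several windows has more chances to hold a match. A match is a description of letters. These 4 windows are shown because they carry the matches of a lysosome membrane marker, a protease, a channel and the gene with the smallest p among the lysosome genes. They are chr8:13158911-13159210 (plus strand) for Lamp1, chr7:142387778-142388077 (minus strand) for Ctsd, chr8:3500269-3500568 (plus strand) for Mcoln1 and chr10:60277378-60277677 (plus strand) for Psap. Capitals mark CACGTG with the bases that extend it to GTCACGTG or its reverse complement CACGTGAC, and in Psap the reverse complement of AAGGTCA.
Lamp1: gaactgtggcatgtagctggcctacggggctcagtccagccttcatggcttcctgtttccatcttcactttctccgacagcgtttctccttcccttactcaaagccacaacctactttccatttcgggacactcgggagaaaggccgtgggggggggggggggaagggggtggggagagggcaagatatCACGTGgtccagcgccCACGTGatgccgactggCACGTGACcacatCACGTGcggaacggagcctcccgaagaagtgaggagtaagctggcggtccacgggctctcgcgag
Ctsd: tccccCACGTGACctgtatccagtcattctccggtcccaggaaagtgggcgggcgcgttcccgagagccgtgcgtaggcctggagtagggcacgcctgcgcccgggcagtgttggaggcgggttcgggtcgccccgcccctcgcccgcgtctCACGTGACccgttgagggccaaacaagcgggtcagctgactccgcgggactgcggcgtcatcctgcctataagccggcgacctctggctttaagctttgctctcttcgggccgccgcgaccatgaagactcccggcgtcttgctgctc
Mcoln1: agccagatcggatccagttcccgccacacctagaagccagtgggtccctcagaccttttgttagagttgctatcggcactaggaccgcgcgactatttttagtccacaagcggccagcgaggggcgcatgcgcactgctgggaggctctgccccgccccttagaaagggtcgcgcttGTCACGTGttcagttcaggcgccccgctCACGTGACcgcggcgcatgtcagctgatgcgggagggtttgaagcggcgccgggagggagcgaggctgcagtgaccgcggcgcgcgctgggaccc
Psap: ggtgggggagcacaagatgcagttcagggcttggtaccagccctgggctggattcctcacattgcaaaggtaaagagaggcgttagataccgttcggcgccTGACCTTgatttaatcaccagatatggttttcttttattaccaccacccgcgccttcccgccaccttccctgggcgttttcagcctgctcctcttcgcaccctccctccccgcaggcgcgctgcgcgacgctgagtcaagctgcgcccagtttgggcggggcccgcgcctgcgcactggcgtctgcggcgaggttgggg
Lamp1 carried 4 CACGTG matches, starting 61, 45, 28 and 15 bases before the start. Ctsd carried a pair, starting 245 and 98 bases before the start, and Mcoln1 a pair as well. The transcripts of these 3 genes had overlapping groups with ERRγ and GFP, as given above. The AAGGTCA match of Psap began 149 bases before the start. Those of Ctsa and Mitf, in windows not shown, began 201 and 152 bases before the start. The groups overlapped for Ctsa (log2 fold change −0.04) and were apart for Mitf (1.17), which did not pass edgeR's test. Whether a match goes with a change was not tested.

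None of the 3 transcription factor genes passed edgeR's test, nor DESeq2's or limma-voom's, and Mitf was past an unadjusted p of 0.05. Of all genes tested, 6.84% passed edgeR's test. Mitf, best known from pigment cells, had 8.30 and 7.31 CPM with ERRγ against 4.09 and 2.87 CPM with GFP (log2 change 1.17, SE 0.36, 95% interval 0.33 to 2.00, adjusted p = 0.1001). Tfeb, the main inducer of lysosome genes, had 3.21 and 7.01 CPM with ERRγ against 2.76 and 2.33 CPM with GFP (1.00, SE 0.50, −0.15 to 2.15, adjusted p = 0.278). For both the ERRγ libraries lay above the GFP libraries, as for 27.4% of all genes tested. The counts were 93 and 74 against 40 and 32 for Mitf and 36 and 71 against 27 and 26 for Tfeb. At these counts the intervals were wide. The log2 fold change of Tfeb was 1.46 without ERRγ library 1 and 0.33 without ERRγ library 2. Tfe3 had 29.8 and 31.1 CPM with ERRγ against 33.8 and 36.0 CPM with GFP (−0.20, SE 0.15, adjusted p = 0.487).

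Of 44 other autophagy genes tested, 2 rose and none fell, a share of 4.55% beside 6.84% of all genes called in either direction. These were the paralogs Atg2a and Atg2b, which encode lipid transfer proteins that feed the growing autophagosome membrane. Atg2a stood at 45.1 and 37.4 CPM with ERRγ and 25.5 and 24.1 CPM with GFP (log2 change 0.74, SE 0.17, adjusted p = 0.0377). Atg2b stood at 37.6 and 46.9 CPM with ERRγ and 26.8 and 24.6 CPM with GFP (0.72, SE 0.17, adjusted p = 0.0475). Both ERRγ libraries were above both GFP libraries for the 2 paralogs, as for 27.4% of all genes tested. Atg2b overlaps Gskip on the opposite strand. The call for Atg2b ended with DESeq2 (adjusted p = 0.0512), with limma-voom (0.0599) and without ERRγ library 2 (0.0838), and that for Atg2a with library totals (0.0604). The mitophagy receptor gene Bnip3, named after its values were seen, had 51.0 and 182 CPM with ERRγ against 32.0 and 40.9 CPM with GFP (1.68, SE 0.49, adjusted p = 0.0879). For Bnip3, ERRγ library 2 was above ERRγ library 1 by 1.84 on the log2 scale. The related gene Bnip3l had 107 and 192 CPM with ERRγ against 133 and 131 CPM with GFP (0.18, SE 0.24, edgeR adjusted p = 0.717), with overlapping groups.

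Of 56 other lysosome genes tested, 2 rose and none fell, a share of 3.57% beside 5.06% of all genes that rose and 1.78% that fell. Lgmn, the cysteine protease legumain, which processes cathepsins, stood at 29.98 and 30.9 CPM with ERRγ and 14.0 and 17.1 CPM with GFP, a 1.96-fold rise (log2 fold change 0.97, SE 0.19, adjusted p = 0.0239). Laptm4b, a membrane protein of late endosomes and lysosomes, stood at 99.9 and 98.5 CPM with ERRγ and 59.6 and 61.1 CPM with GFP, a 1.64-fold rise (0.72, SE 0.13, adjusted p = 0.0181). The libraries of each group lay close together for both genes, and the groups were apart, as for 54% of all genes tested. The median log2 fold change was 0.10 over the other autophagy genes and −0.00 over the other lysosome genes, and without ERRγ library 2 it was 0.029 and −0.092.

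Of 25 genes tested for nutrient sensing at the lysosome, 1 rose and 1 fell, 8% in all beside 6.84% of all genes called. Mtor, the kinase that restrains autophagy when nutrients are plentiful, stood at 33.9 and 32.9 CPM with ERRγ and 20.3 and 21.5 CPM with GFP (log2 change 0.68, SE 0.16, adjusted p = 0.0489). Tsc2, part of the complex that inhibits that kinase, stood at 38.1 and 40.0 CPM with ERRγ and 62.5 and 57.5 CPM with GFP (−0.62, SE 0.14, adjusted p = 0.0376). The groups were apart for both, as for 54% of all genes tested. Mtor overlaps Angptl7 and Tsc2 overlaps Pkd1, each on the opposite strand. The call for Mtor ended with DESeq2 (adjusted p = 0.0877), limma-voom (0.0569) and library totals (0.0775), and that for Tsc2 with library totals (0.0650). All 6 calls of these lists ended without GFP library 1 (adjusted p of 0.214 to 0.329) and without GFP library 2 (0.106 to 0.290).

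**Figure D3:**
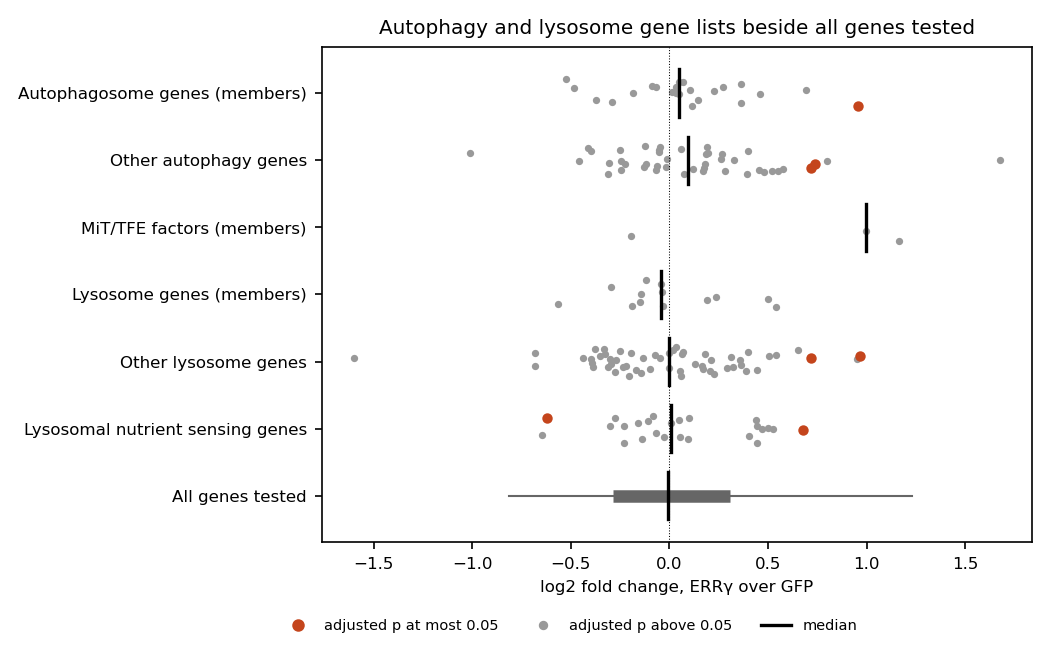
Log2 fold change, ERRγ over GFP, of every tested gene in each list as a point, with the list's median as a black bar; for all genes tested the thick bar spans the 25th to 75th percentile and the thin line the 5th to 95th. The median of the 3 transcription factor genes is 1.00 (0.33 without ERRγ library 2, and 0.49 with genes under 5 CPM on average dropped), the medians of the other 5 lists lie between −0.04 and 0.10, beside −0.01 for all genes, and coloured points passed the test.

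The 2 ERRγ libraries differed from each other in the 13 listed lysosome genes. All 13 stood higher in ERRγ library 2, the one with more Esrrg, than in ERRγ library 1, by a median of 0.25 on the log2 scale, where 49.4% of all genes tested were higher with a median of −0.01. The same 13 were higher under DESeq2's size factors, and 12 of the 13 under library totals, where 30.1% of all genes were higher. Between GFP library 2 and GFP library 1, 9 of the 13 were higher, by a median of 0.090. Under library totals the median was 0.078 in the ERRγ pair and 0.155 in the GFP pair, so which pair differed more turned with the scaling. Of the 56 further lysosome genes, 36 (64.3%) were higher in ERRγ library 2, by a median of 0.084, and 35 were higher in GFP library 2, by a median of 0.054. Under library totals 35.7% of them were higher in ERRγ library 2. Of the 25 nutrient sensing genes, 76% were higher in ERRγ library 2 under TMM and 52% under library totals. Among the 23 autophagosome genes, 14 (60.9%) were higher in ERRγ library 2 under TMM, by a median of 0.142, and 9 were higher in GFP library 2. Under library totals 39.1% of the autophagosome genes were higher in ERRγ library 2, with a median of −0.028. The largest such differences among all members were 1.10 for Tfeb, 0.70 for Sqstm1 and 0.63 for Mcoln1. With 1 library at each Esrrg level there is no test of this difference, and other features of these libraries differ along with it.

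**Figure D4:**
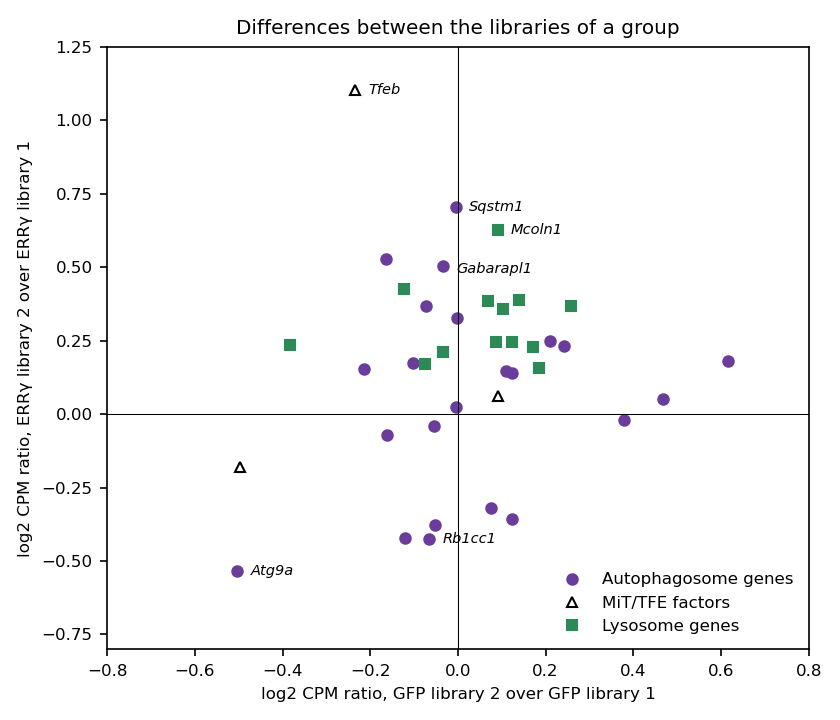
Log2 ratio of CPM between library 2 and library 1 of the same group, GFP on the horizontal axis and ERRγ on the vertical axis, 1 point a gene. All 13 lysosome genes (squares) lie above the horizontal zero line, and Tfeb at 1.10 and Sqstm1 at 0.70 lie farthest above it. The ratios use TMM scaling. Under library totals 12 of the 13 lysosome genes were higher in ERRγ library 2, and their median was 0.078 in the ERRγ pair and 0.155 in the GFP pair.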

How the data were processed

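Transcript ends were sequenced with a Lexogen QuantSeq kit from total RNA, per the labels' protocols. The deposited files hold raw read counts per gene symbol for each library, with no normalization by the authors. The submitters' processing notes name Bowtie2, edgeR and mm10, and the counter, annotation and use of strand are not stated there or in the labels. Of the deposited counts, 13070 rows passed filterByExpr (minimum count 10). They were tested with R 4.3.3 and edgeR 4.0.16 (TMM, group alone, glmQLFit and glmQLFTest, 2 residual degrees of freedom, two-sided). Benjamini-Hochberg adjustment covered the whole set of tested genes, and 0.05 was the threshold. The SE is the size of the log2 fold change over the square root of F, and 95% intervals use the test's degrees of freedom. A list is described by counts and medians, with no set test. Alternatives were DESeq2 1.42.0, limma-voom (limma 3.58.1), other scalings and filters, and leaving out each library. The libraries of a group differed beyond sampling noise, with a chi-square per degree of freedom of 24.2 in the ERRγ pair and 15.2 in the GFP pair. PCR reads carry no stated molecular identifiers, so floors cover counting error only. The members and lists were chosen with earlier results of these data known. Named genes are Esrrg, the members, and up to 6 called genes of each further list, with Bnip3 and Bnip3l named outside this rule. Positions are from GENCODE M21 (GRCm38); promoters are RefSeq's. Protein sequences were not used here. Ends of the members' coding transcripts (200 bases) were matched to other genes at 95% identity or more over at least 150 bases, and 5 members had such a match.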

Additional observations from a re-analysis of the deposited data

How the results depend on the processing

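With 2 libraries a group, most counts moved with the library left out: over all genes tested between 92 and 1555 rose and between 7 and 1098 fell, and the ends of these ranges lie without GFP library 1 and without ERRγ library 1. Over the same 4 fits, 0 to 4 autophagosome genes rose and 0 to 2 fell, 0 to 3 lysosome genes rose and 0 to 2 fell, and 0 to 1 transcription factor genes rose while none fell. Without ERRγ library 1, Sqstm1, Optn, Ulk1, Ctsb, Ctsz, Psap and Tfeb passed as higher and Ulk2 and Vmp1 as lower, and without ERRγ library 2 Hexa and Npc1 passed as lower. A fit without an ERRγ library takes its spread from the GFP pair alone, so a pass there does not show a change. The other autophagy genes gave 0 to 7 rises and 0 to 6 falls, the other lysosome genes 0 to 6 and 0 to 3, and the nutrient sensing genes 0 to 5 and 0 to 2. The log2 fold change of Esrrg was between 3.81 and 7.12, with adjusted p of 0.168 and 0.127 without GFP library 1 and 2, and with limma-voom it was 5.46 and no longer passed (adjusted p = 0.0623). A single library turned the sign of 13 genes that had not passed: Gabarap (−0.13 to 0.20), Sqstm1 (−0.17 to 0.53), Rb1cc1 (−0.084 to 0.34), Atg13 (−0.032 to 0.13), Atg14 (−0.19 to 0.19), Wipi1 (−0.060 to 0.19), Atg12 (−0.16 to 0.016), Atg16l1 (−0.15 to 0.24), Lamp1 (−0.17 to 0.075), Mcoln1 (−0.54 to 0.095), Ctsa (−0.13 to 0.045), Ctsd (−0.31 to 0.050) and Gaa (−0.26 to 0.17). With no filter, 1247 of 17888 genes rose and 732 fell. Among them were 2 lysosome genes up (Psap and Ctsz) and 1 down (Hexa), and 1 transcription factor gene up (Mitf). There were also 5 other autophagy genes up and 1 down, 4 other lysosome genes up and 1 down, and 2 nutrient sensing genes each way. DESeq2 called 1 lysosome gene up. It called 1 other autophagy gene up, as did limma-voom and library totals. No nutrient sensing gene rose with DESeq2, limma-voom, library totals or the replicate block, and 0 fell with library totals. The cause of these shifts was not tested. Gabarapl1 kept its call in every fit of all 4 libraries, with log2 fold changes from 0.93 to 0.97. The labels number the libraries of both groups 1 and 2, but the numbers pair nothing that the labels state: deviations from the group means correlated at 0.0093 over genes. With the replicate number as a block, Gabarapl1 had a log2 fold change of 0.94 (adjusted p = 0.0101) and Mtor lost its call (adjusted p = 0.0513). Low counts, as for Tfeb and Mitf, left wide intervals.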
